A study of Homo sapiens with 6 samples.

Results

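The ZNF706 neighbourhood on chromosome 8q22 was taken as every gene of the deposited table that starts in the 9 Mb from position 97000000 of chromosome 8 (GRCh38), and 92 of the 33007 genes met this rule. ZNF706 lies near the middle of this stretch, and MTDH, LAPTM4B, YWHAZ and GRHL2 are among its neighbours. The RNA came from LM3, an established human hepatocellular carcinoma (HCC) cell line, in 3 samples with an empty lentiviral vector (control) and 3 samples with stable shRNA knockdown of ZNF706 (knockdown). Both groups carried the lentiviral backbone and were labelled wild type, and the labels do not name the hairpin or say whether the samples of a group came from separate cultures, so p-values measure only the spread between these samples. The libraries held 62684076, 64713764 and 63054445 counts in the control group, against 68548419, 65861994 and 69057423 counts in the knockdown group. Every knockdown sample was therefore deeper than every control sample.

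The labelled cell type was only partly borne out by its markers. Of the 4 epithelial markers, only the keratins were abundant, with a mean of 193 FPKM (read fragments scaled to gene length and sequencing depth) for KRT8 and 271 FPKM for KRT18 in the control group. EPCAM was at 0.127 FPKM in the control and 0.23 FPKM in the knockdown group, and CDH1, the gene of E-cadherin, at 0.293 and 0.457 FPKM. Of 11 hepatocyte and HCC markers, only ALB and APOA1 reached a mean of 1 FPKM. ALB, the gene of serum albumin, was at 2.63 ± 1.61 FPKM in control and 1.71 ± 1.05 FPKM in knockdown samples (SD, n = 3 each), and TTR, the gene of the plasma protein transthyretin, was at 0.040 FPKM in both. The summed list was 3.73, 8.64 and 10.3 FPKM in the control samples, against 4.41, 4.56 and 2.78 FPKM in the knockdown samples, with overlapping groups. All 10 of these markers that could be tested had a log2 fold change below 0, beside 48.7% of all tested genes. Of the 10, 2 passed the test, beside 12.4% of all tested genes called lower. They were SERPINA1, the gene of alpha-1 antitrypsin (log2 fold change -1.47, edgeR's quasi-likelihood test, adjusted p = 0.0034), and APOB, the gene of an apolipoprotein (log2 fold change -0.98, same test, adjusted p = 0.021). SERPINA1 fell from a mean of 0.767 to 0.280 FPKM and APOB from 0.223 to 0.120 FPKM. The leukocyte marker PTPRC was at 0.0067 FPKM in the control group and listed at 0 in the knockdown group. CD68, the most abundant of the 3 leukocyte genes found in the table and also a lysosomal protein of other cells, rose from 10.6 to 17.1 FPKM (log2 fold change 0.64). LYZ, the only other leukocyte gene that could be tested, was at 0.33 and 0.103 FPKM (log2 fold change -1.71) and did not pass the test. The summed leukocyte list, nearly all of it CD68, was between 10.7 and 11.2 FPKM in the control samples and between 16.7 and 18.1 FPKM in the knockdown samples. In bulk RNA a different number of cells of a kind and a different level per cell cannot be told apart. The summed endothelial list was between 1.79 and 2.06 FPKM in the control samples and between 1.43 and 1.69 FPKM in the knockdown samples, with VWF near 0 throughout. Of its other genes CDH5 fell from a mean of 1.25 to 0.793 FPKM (log2 fold change -0.70, edgeR's quasi-likelihood test, adjusted p = 0.0014), while PECAM1 had a log2 fold change of 0.15 and did not pass the test. The summed fibroblast list, nearly all of it COL1A1, was between 7.65 and 7.87 FPKM in the control samples and between 9.48 and 9.67 FPKM in the knockdown samples, with DCN at 0.03 FPKM in both groups. In this list COL1A1 rose from a mean of 7.05 to 8.40 FPKM (log2 fold change 0.20, edgeR's quasi-likelihood test, adjusted p = 0.0023) and PDGFRB from 0.653 to 1.08 FPKM (log2 fold change 0.68, same test, adjusted p = 0.0030). The part of these lists in the results was not tested.

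As background, the long arm of chromosome 8 is often gained in liver cancer, and genes that lie close together on it then tend to be gained together. Several genes of 8q22 have been studied as growth-promoting genes for that reason, among them MTDH, an adaptor of oncogenic signalling, LAPTM4B, a lysosomal membrane protein, and YWHAZ, a 14-3-3 adaptor protein. A short hairpin RNA directs the cell's RNA interference machinery to the transcript that it matches. Copy number was not analysed here, and the comparison asked how the neighbours of ZNF706 were expressed after its transcript was lowered, and whether this varied with distance from ZNF706.

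ZNF706 (ENSG00000120963, chromosome 8, 101177878 to 101205682, minus strand), which encodes a small zinc finger protein, was the targeted gene. It had 3211, 3504 and 3357 counts in the control samples, against 2350, 2068 and 2298 counts in the knockdown samples. Scaled to library size with TMM factors, this gave 51.9, 55.1 and 54.7 CPM (counts scaled to a common depth) in the control samples and 33.5, 30.8 and 32.8 CPM in the knockdown samples. All knockdown samples were below all control samples, so the transcript was lowered but not removed. The log2 fold change was -0.73 (95% interval -0.85 to -0.62, edgeR's quasi-likelihood test, adjusted p = 3.7e-05 by Benjamini-Hochberg across 18390 genes), a level 39.9% lower. By FPKM the level was 6.28 ± 0.16 in control and 3.90 ± 0.16 in knockdown samples (SD, n = 3 each). Among the 2286 genes that fell in the whole table, 110 had a lower log2 fold change than ZNF706. With 3 samples against 3, an exact two-sided permutation test of any single gene cannot go below p = 0.1, the value it gave for ZNF706.

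The neighbourhood held 39 protein-coding genes, 28 lncRNA genes and 25 pseudogenes, small RNAs or other genes. Its expression was concentrated in a few of them. Averaged over the 6 samples, 13 genes had at least 10 FPKM and 28 had at least 1 FPKM, while 52 were under 0.1 FPKM. PABPC1, which binds the poly(A) tails of mRNA, led with 123 FPKM, followed by YWHAZ with 72.2 FPKM, the ribosomal protein gene RPL30 with 62.4 FPKM, LAPTM4B with 61.3 FPKM and MTDH with 22.0 FPKM. ZNF706 itself, at 5.09 FPKM, was only the 19th in this order. By counts, YWHAZ supplied 22.5% and PABPC1 18.6% of all counts of the neighbourhood.

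GRHL2, the closest protein-coding gene on the telomeric side and a transcription factor of epithelial cells, had 0, 0 and 0 counts in the control samples, against 0, 0 and 4 counts in the knockdown samples. It was thus not detectable in 5 samples at a depth where 0 counts still allows up to 3, a limit that covers counting error only. No comparison of GRHL2 could be made. In all, 48 genes of the neighbourhood had too few counts to be tested, 9 of them protein coding, and the highest count in any of them was 30, for TSPYL5 in 1 control sample. Of the 92 genes, 3 had no count at all and 19 had at most 3 counts in every sample. The remaining 44 genes were tested, namely 30 protein-coding genes, 13 lncRNA genes and the pseudogene RPS26P6.

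**Figure D1:**
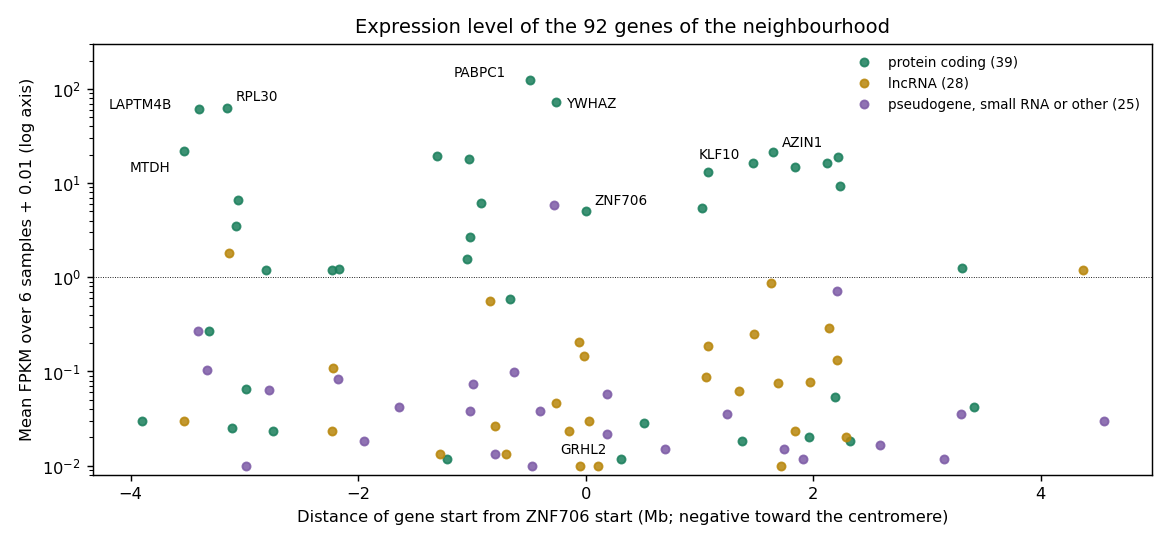
Mean FPKM over the 6 samples plus 0.01 (log axis) for each of the 92 genes against the distance of its start from that of ZNF706 (Mb, negative toward the centromere), with colours for the kind of gene and a dotted line at 1 FPKM. PABPC1 and YWHAZ, both within 0.5 Mb of ZNF706, had the highest levels, and GRHL2, just telomeric of ZNF706, sits near the bottom of the axis.

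Of the 44 tested genes, 11 (25.0%) had an adjusted p below 0.05, 2 higher and 9 lower in the knockdown group, beside 22.8% of all 18390 tested genes (10.4% higher and 12.4% lower). Without ZNF706 the count was 10 of 43 (23.3%), close to the share in the whole table. With scaling by library size in place of TMM, 3 of the 44 genes were higher and 7 lower, beside 2742 higher and 1518 lower in the whole table. The genes that fell were KLF10, POP1, SPAG1, MTDH, SLC25A32, COX6C, PABPC1 and ATP6V1C1 besides ZNF706, and those that rose were RIDA and AZIN1. The changes of these 10 neighbours were between 0.14 and 0.47 in size on the log2 scale, all smaller than that of ZNF706. The median log2 fold change of the 43 neighbours was -0.05 (all tested genes 0.01), and their median absolute log2 fold change was 0.20, the same to 2 decimals as that of all tested genes. The sample values did not overlap between the groups in 19 of the 44 genes, 5 higher and 14 lower, beside 39.4% of all tested genes (19.7% in each direction). These 19 included each of the 11 genes that changed, and also YWHAZ, STK3, RNF19A, POLR2K, ANKRD46 and the lncRNAs AP003352, AP002851 and GASAL1, none of which passed the test.

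The count depended on depth. Among neighbours averaging 1000 counts or more, 9 of 20 (45.0%) changed, 1 higher and 8 lower, beside 37.5% of the 8512 tested genes of that depth (13.2% higher and 24.3% lower). Among those below it, RIDA alone of 23 (4.35%) changed, beside 10.1% of the other tested genes. All 10 neighbours that changed were protein coding, out of 29 (34.5%, beside 28.8% of all tested protein-coding genes). None of the 13 lncRNA genes changed by edgeR's quasi-likelihood test, beside 8.64% of all tested lncRNA genes.

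**Figure D2:**
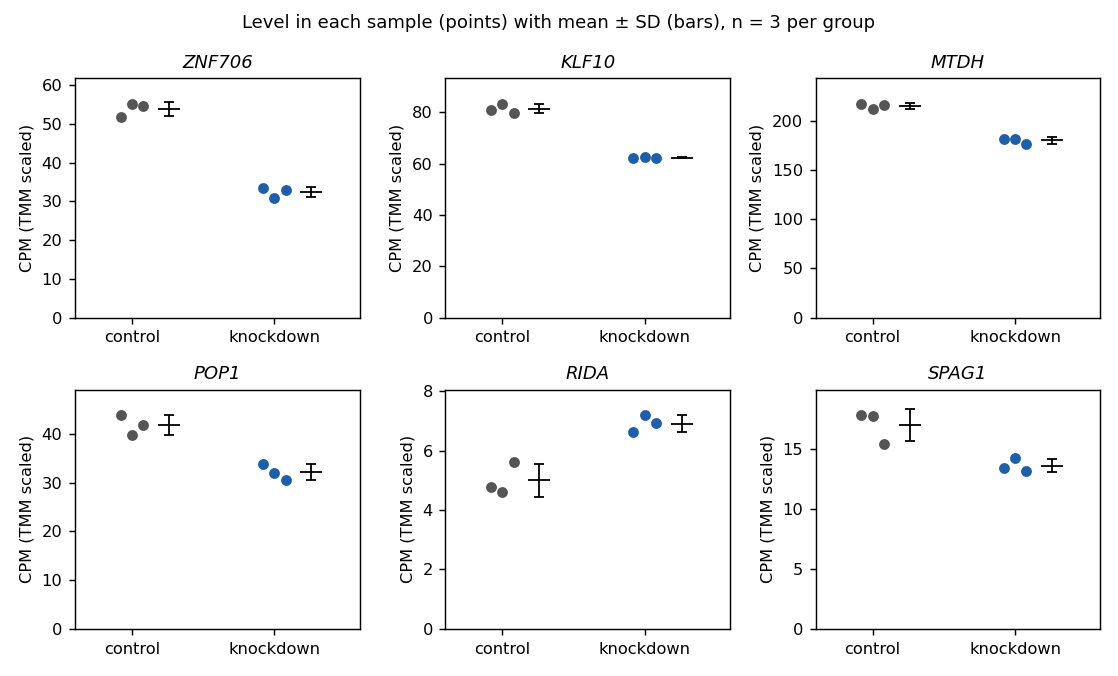
TMM-scaled CPM in each sample (points) with the mean and SD (bars, n = 3 per group) for ZNF706 and the 5 neighbours with the largest changes among those that passed the test (RIDA, KLF10, POP1, SPAG1 and MTDH), on linear axes that start at 0. The control and knockdown samples did not overlap in any of the 6 genes, RIDA alone was higher in the knockdown samples, and the 3 KLF10 values of the knockdown group almost coincided.

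Genes of transcription and translation were considered first. Of 8 tested, 3 (37.5%) fell and none rose (median log2 fold change -0.14), beside 12.4% of all tested genes lower and 10.4% higher. The lower share was 16.4% among all tested protein-coding genes and 24.3% among genes averaging 1000 counts or more. For so few genes these shares are descriptions. KLF10, a zinc finger transcription factor induced by TGF-beta, had 81.0, 83.3 and 79.9 CPM in the control samples and 62.2, 62.5 and 62.4 CPM in the knockdown samples. The knockdown values lay within 1 CPM of each other and far below the control values. Its log2 fold change was -0.38 (standard error 0.035, edgeR's quasi-likelihood test, adjusted p = 0.00012), a level 23.4% lower.

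POP1, a protein subunit shared by RNase P and RNase MRP, the RNA-protein enzymes that process tRNA and rRNA precursors, had 43.8, 39.8 and 41.8 CPM in the control samples and 33.8, 32.1 and 30.6 CPM in the knockdown samples. The lowest control sample was above the highest knockdown sample. Its log2 fold change was -0.38 (standard error 0.059, edgeR's quasi-likelihood test, adjusted p = 0.0017). PABPC1 had 623, 605 and 633 CPM in the control samples and 558, 548 and 540 CPM in the knockdown samples. The fall of PABPC1 was a small one in a very abundant transcript, 11.6% (log2 fold change -0.18, standard error 0.030, same test, adjusted p = 0.0028).

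The other 5 tested genes of this group did not pass the test. RPL30 had 270, 292 and 304 CPM in the control samples and 248, 282 and 308 CPM in the knockdown samples, with overlapping groups and a 95% interval of the log2 fold change of -0.21 to 0.11. DCAF13, a nucleolar protein of ribosome production, had a log2 fold change of -0.04 (95% interval -0.12 to 0.04). POLR2K, a small subunit shared by the nuclear RNA polymerases, had 36.2, 35.2 and 34.9 CPM against 30.3, 33.9 and 34.5 CPM. Its groups were apart by less than the spread within the knockdown group, and the log2 fold change of -0.11 had an interval of -0.24 to 0.03. The transcription factor OSR2 was at 0.00 (95% interval -0.41 to 0.41) and ZFPM2, a cofactor of GATA factors, at -0.77 (95% interval -2.24 to 0.70) from fewer than 1 CPM in every sample.

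Genes of mitochondria and metabolism changed in both directions. Of 5 tested, 2 rose and 2 fell (80.0% in all, median log2 fold change -0.03), beside 10.4% of all tested genes higher and 12.4% lower, and 28.8% of protein-coding genes and 37.5% of genes averaging 1000 counts or more in either direction. Without knockdown replicate 2 only SLC25A32 of the 4 was called, and 2 of them were called without control replicate 2 or without control replicate 3. RIDA, which hydrolyses reactive enamine and imine intermediates of amino acid metabolism, had 4.78, 4.59 and 5.62 CPM in the control samples and 6.62, 7.19 and 6.93 CPM in the knockdown samples. Every knockdown sample was higher, and the log2 fold change was 0.47 (standard error 0.12, edgeR's quasi-likelihood test, adjusted p = 0.022), a level 38.2% higher. AZIN1, an antizyme inhibitor that favours polyamine synthesis, had 134, 143 and 126 CPM in the control samples and 158, 156 and 150 CPM in the knockdown samples. It was also higher in all 3 knockdown samples, by 0.20 on the log2 scale (standard error 0.048, same test, adjusted p = 0.014).

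SLC25A32, which carries folate into mitochondria, had 84.3, 87.8 and 85.9 CPM in the control samples and 70.5, 76.5 and 72.0 CPM in the knockdown samples. All knockdown samples were lower, with a log2 fold change of -0.24 (standard error 0.041, edgeR's quasi-likelihood test, adjusted p = 0.0029). COX6C, a subunit of cytochrome c oxidase in the respiratory chain, had 62.0, 65.3 and 68.6 CPM in the control samples and 51.6, 57.1 and 58.8 CPM in the knockdown samples. Its groups were apart by less than the spread within either group, and the log2 fold change was -0.23 (standard error 0.057, same test, adjusted p = 0.018). RRM2B, a ribonucleotide reductase subunit induced by p53, did not pass the test, with 35.0, 33.8 and 31.6 CPM against 35.1, 32.0 and 31.5 CPM and a 95% interval of the log2 fold change of -0.17 to 0.12.

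Of the 7 tested genes of signalling and growth control, 2 (28.6%) fell and none rose (median log2 fold change -0.03), beside 22.8% of all tested genes and 28.8% of protein-coding genes called in either direction. The second of these, SPAG1, was lost on leaving out any 1 sample other than control replicate 3. MTDH had 217, 212 and 217 CPM in the control samples and 182, 182 and 177 CPM in the knockdown samples. The groups were well apart, and the log2 fold change was -0.26 (standard error 0.032, edgeR's quasi-likelihood test, adjusted p = 0.00058), a level 16.3% lower. SPAG1, a factor needed to assemble the dynein arms of motile cilia, had 17.8, 17.7 and 15.5 CPM in the control samples and 13.4, 14.3 and 13.2 CPM in the knockdown samples. It fell by 0.32 on the log2 scale (standard error 0.088, same test, adjusted p = 0.027), and control replicate 3 lay closer to the knockdown samples than to the other control samples.

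YWHAZ, the most counted gene of the neighbourhood, had 709, 703 and 728 CPM in the control samples and 695, 698 and 696 CPM in the knockdown samples. The knockdown samples were all slightly lower on this scale (higher by 0.019 on the log2 scale with library size alone), and the log2 fold change of -0.03 had a 95% interval of -0.10 to 0.03 (edgeR's quasi-likelihood test, adjusted p = 0.43). STK3, a kinase of the Hippo pathway, had 19.2, 18.5 and 17.1 CPM against 16.4, 16.0 and 15.4 CPM, without overlap, and missed the threshold with a log2 fold change of -0.19 (adjusted p = 0.11). The ankyrin repeat protein gene ANKRD46 had 3.54, 3.13 and 3.26 CPM in the control samples and 4.41, 4.29 and 4.42 CPM in the knockdown samples. It was higher in all knockdown samples, by 0.40 on the log2 scale, and just missed the threshold (edgeR's quasi-likelihood test, adjusted p = 0.056). Its call turned with the scaling, since it passed with library size alone (log2 fold change 0.46, adjusted p = 0.036 by edgeR) and with the GC and length offsets (0.033 and 0.049), and over the alternatives that tested it the adjusted p was between 0.033 and 0.15. FZD6, a receptor for Wnt ligands, had between 75.0 and 77.9 CPM in all 6 samples and a 95% interval of -0.09 to 0.06.

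Among genes of membranes, vesicles and matrix, 2 of 7 tested (28.6%) fell and none rose (median log2 fold change -0.14), beside the same 22.8% and 28.8%, and without any 1 sample other than control replicate 2 the count was 1. SLC25A32, already described, was the first, and the second was ATP6V1C1, a subunit of the proton pump that acidifies lysosomes. ATP6V1C1 had 108, 98.7 and 102 CPM in the control samples and 94.7, 93.6 and 91.6 CPM in the knockdown samples. It was lower in every knockdown sample by a small amount, 9.30% (log2 fold change -0.14, standard error 0.040, edgeR's quasi-likelihood test, adjusted p = 0.032). LAPTM4B had 209, 225 and 229 CPM in the control samples and 225, 222 and 232 CPM in the knockdown samples. The groups overlapped, and the 95% interval of the log2 fold change of LAPTM4B was -0.06 to 0.13. VPS13B, a lipid transfer protein of the Golgi, had an interval of -0.18 to 0.14, LRP12, a membrane receptor, one of -0.41 to 0.02, and MATN2, a matrix protein, one of -0.19 to 0.80.

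None of the 3 tested ubiquitin ligase genes passed the threshold, beside 22.8% of all tested genes and 28.8% of protein-coding genes called in either direction. RNF19A had 41.5, 43.2 and 43.7 CPM against 40.0, 38.3 and 39.3 CPM. Its groups did not overlap, and the log2 fold change of -0.13 had an adjusted p of 0.074 by edgeR's quasi-likelihood test. FBXO43, an inhibitor of the anaphase-promoting complex in meiosis, had an interval of -0.16 to 0.52.

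The 10 neighbours that changed did not hold their calls equally well. KLF10, MTDH, POP1, PABPC1 and SLC25A32, like ZNF706, passed the threshold in all 6 fits that left out 1 sample each. AZIN1 passed in 4 of 6 fits and was lost without control replicate 3 (adjusted p = 0.051) or knockdown replicate 2 (adjusted p = 0.059). RIDA passed only without control replicate 3 or knockdown replicate 1, and elsewhere reached adjusted p values of up to 0.085. COX6C passed only without control replicate 1 or knockdown replicate 3 and otherwise reached 0.075. SPAG1 was called only without control replicate 3 (otherwise up to 0.083) and ATP6V1C1 only without control replicate 2 (otherwise up to 0.10), all by edgeR's quasi-likelihood test. The direction of each of these 10 genes was the same in every such fit. Without knockdown replicate 2, 6 of the 45 neighbourhood genes tested in that fit were called, beside 2648 of its 19100 genes.

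Among the nearest genes of ZNF706, within 1 Mb by gene starts, PABPC1 alone passed the test. ZNNT1, an lncRNA gene 11.1 kb away toward the centromere, had 31, 55 and 13 counts in the control samples, against 25, 31 and 21 counts in the knockdown samples. These counts overlapped widely, and the log2 fold change of -0.50 had a 95% interval of -1.70 to 0.71, so at this depth a change as large as that of ZNF706 or none could not be told apart. YWHAZ followed at 0.26 Mb and the pseudogene RPS26P6 at 0.28 Mb (log2 fold change 0.08, 95% interval -0.60 to 0.76), whose reads may be shared with RPS26 and its copies. PABPC1 at 0.49 Mb was the closest gene that changed, and ANKRD46 lay at 0.67 Mb.

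Toward the telomere the first tested gene was NCALD, a neuronal calcium sensor, at 0.51 Mb, with 17, 6 and 0 counts in the control samples, against 12, 25 and 8 counts in the knockdown samples. Its interval of -1.47 to 3.11 on the log2 scale shows that nothing could be said of it at this depth. RRM2B followed at 1.03 Mb and the lncRNA gene AP002907 at 1.08 Mb, and neither passed the test. AP002907 had a 95% interval of the log2 fold change of -1.04 to 1.99. The closest gene that changed on the telomeric side was KLF10, at 1.47 Mb.

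**Figure D3:**
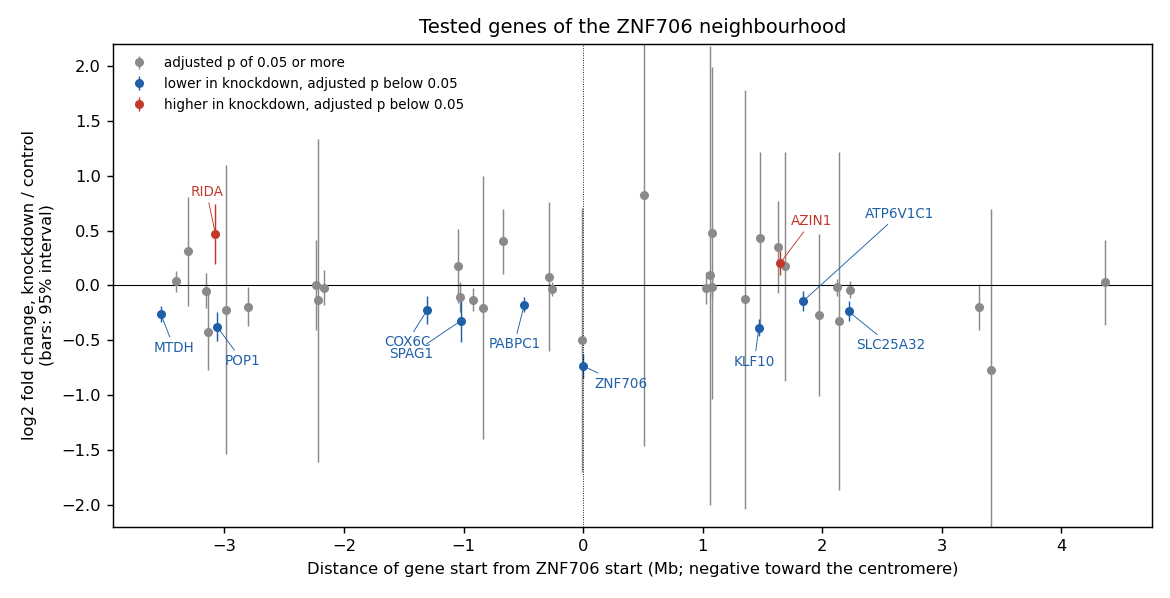
Log2 fold change of the knockdown against the control group with its 95% interval (bars) for the 44 tested genes, by the distance of each gene's start from that of ZNF706 (Mb, negative toward the centromere), and 2 of the intervals run past the axis. ZNF706 has the lowest value of the genes that changed, and the others that changed, in blue and red, lie between 0.49 Mb and 3.53 Mb from it on both sides, among genes in grey that did not pass the test.

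By distance of the gene starts, 1 of 4 tested genes within 0.5 Mb of ZNF706 changed (median log2 fold change -0.11), none of 4 between 0.5 and 1 Mb (median 0.14) and 5 of 16 between 1 and 2 Mb (median -0.02). Between 2 and 3 Mb 1 of 9 changed (median -0.13), and beyond 3 Mb 3 of 10 did (median -0.12). Within 1 Mb the count was thus 1 of 8, and beyond it 9 of 35 (25.7%), beside 22.8% of all tested genes. The nearer and farther genes were not matched for depth, on which the calls depended, so these counts do not isolate distance. When 1 sample was left out, the nearer count was 1 in every fit and the farther count was 4 to 6. SPAG1 begins 1.02 Mb from ZNF706 and moved inside 1 Mb when midpoints were used in place of starts, which made the nearer count 2. The nearer count was also 2 with library size alone and with the GC and length offsets, where ANKRD46 was called. Toward the centromere 6 of 23 neighbours changed, and toward the telomere 4 of 20. Across the 43 neighbours the rank correlation of the absolute log2 fold change with distance was -0.01, and that of the signed log2 fold change was -0.16. Among the 20 neighbours averaging 1000 counts or more the first of these was 0.13. These values describe genes that share the same libraries and differ in depth, and no p is given for them.

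Summed over all of them, the neighbours of ZNF706 supplied a slightly smaller share of the counts in the knockdown samples. Without ZNF706 the share was 0.312%, 0.311% and 0.313% of all counts in the control samples, against 0.305%, 0.306% and 0.304% in the knockdown samples. The groups did not overlap, and the knockdown mean differed from the control mean by -2.25%. The size of this difference moved with the scaling. On TMM-scaled CPM the sum was 3180 ± 30.9 in control and 2995 ± 12.8 in knockdown samples (SD, n = 3 each), a difference of -5.82%. Without YWHAZ and PABPC1 as well, the share was 0.181% ± 0.00097 (SD, n = 3) against 0.178% ± 0.0012 (SD, n = 3).

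The counts of genes that changed were set beside the rest of chromosome 8, of which 126 of 576 tested genes (21.9%) changed. In the 9 Mb before the neighbourhood 6 of 37 changed (16.2%, median log2 fold change -0.06), and in the 9 Mb after it 2 of 9 did (22.2%, median -0.11). On 8q outside the neighbourhood as a whole, 78 of 356 genes changed (21.9%), and on 8p 48 of 220 (21.8%, median -0.05). The end of 8q farther out was the only segment of the chromosome with more rises than falls, 25 against 18 of 181 tested genes (median 0.07). For single chromosomes of the nucleus the share was between 17.9% and 26.7% and the median between -0.04 and 0.07, so the 23.3% of the neighbours lay inside the range of the shares. Their median of -0.05 (-0.048) lay just below the lowest of the medians (-0.043), outside their range. With ZNF706 included the median was -0.08, and this value moved between -0.13 and -0.030 when 1 sample was left out and to -0.023 with library size alone. Library size alone also moved the median of all tested genes, from 0.01 to 0.06. The -0.023 is thus not comparable with the chromosome medians, which are on the TMM scale.

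**Figure D4:**
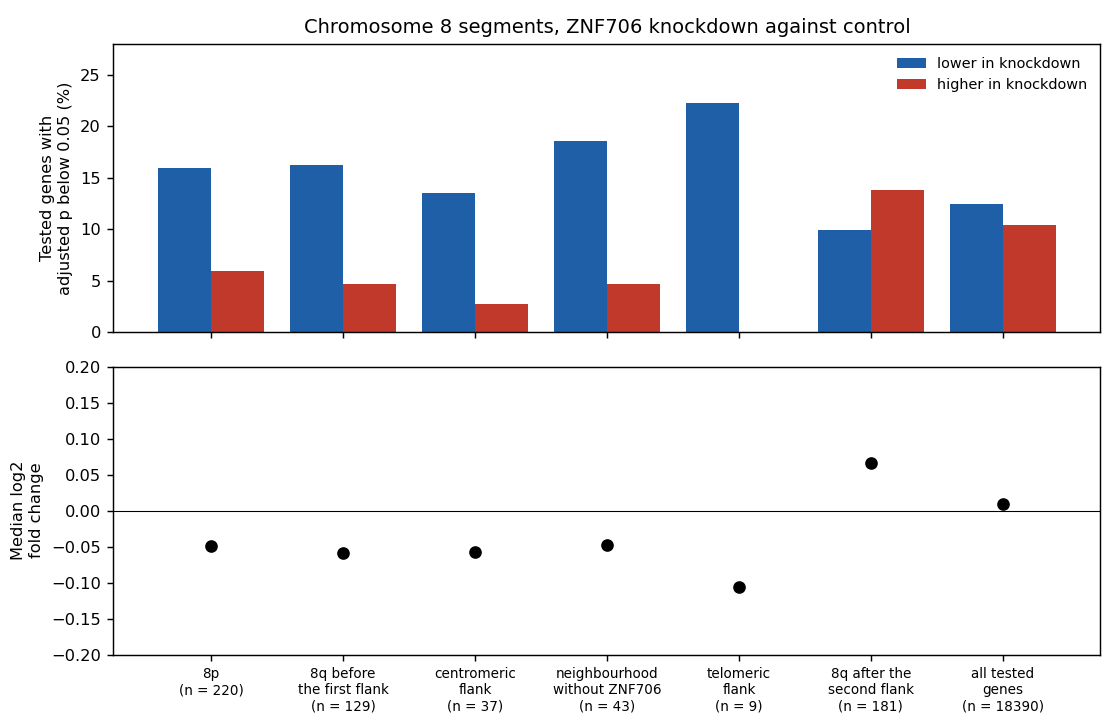
Upper panel, the percentage of tested genes with an adjusted p below 0.05 that were lower (blue) or higher (red) in the knockdown group, for segments of chromosome 8 in order and for all tested genes, and lower panel, the median log2 fold change of the same sets. Falls outnumbered rises in every segment but the last of 8q, where the median was 0.07 against -0.05 in the neighbourhood without ZNF706.

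RIDA and POP1 lie head to head on opposite strands, with only 122 bases between the ends where their transcription begins. They changed in opposite directions. The pair was singled out after these values were seen. The ratio of RIDA to POP1 counts, which does not depend on library scaling, was 0.109, 0.116 and 0.134 in the control samples, against 0.196, 0.224 and 0.227 in the knockdown samples. The ratio was higher in all 3 knockdown samples, by 0.85 on the log2 scale (means of -3.07 and -2.22), which restates the opposite calls of the 2 genes. Of the 6 such head-to-head pairs in the neighbourhood, with these ends within 1000 bases, RIDA and POP1 were the only ones of which both genes changed. In the whole table both genes changed in 135 of 2179 pairs (6.20%), in opposite directions in 60 (2.75%) and in the same direction in 75.

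SLC25A32 and DCAF13 form another of these pairs, overlap by 476 bases, and were likewise picked after their values were seen. The ratio of SLC25A32 to DCAF13 counts was 0.882, 0.878 and 0.850 in the control samples, against 0.735, 0.783 and 0.756 in the knockdown samples. It was lower in all 3 knockdown samples, with a mean log2 ratio of -0.20 in the control group and -0.40 in the knockdown group. SLC25A32 was already called lower and DCAF13 was not called, so this is a description and no further test. In the other 4 pairs at most 1 gene changed, and KLF10 fell beside AP002851, an lncRNA gene whose log2 fold change of 0.43 had a 95% interval of -0.35 to 1.22.

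**Figure D5:**
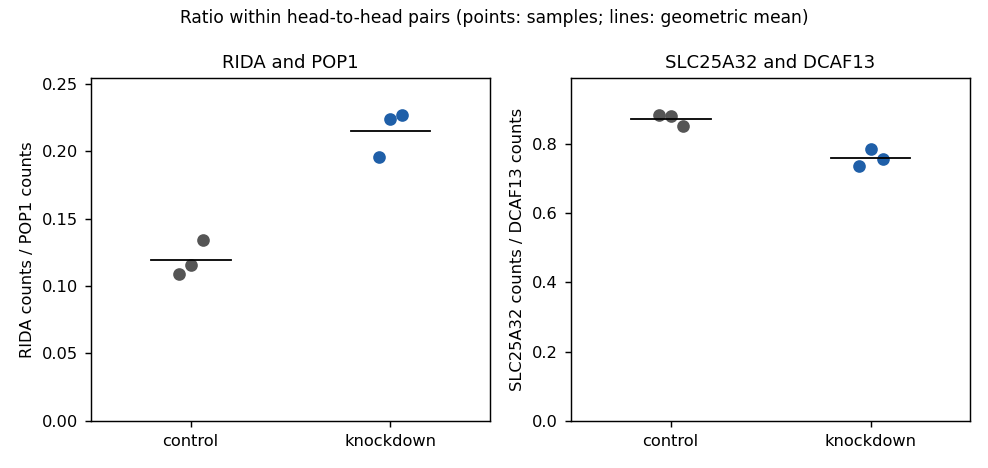
Ratio of the counts of 2 head-to-head neighbours in each sample (points), with the geometric mean of each group (lines), for RIDA and POP1 and for SLC25A32 and DCAF13, on linear axes that start at 0. The RIDA to POP1 ratio was between 0.109 and 0.134 in the control samples and between 0.196 and 0.227 in the knockdown samples, and the SLC25A32 to DCAF13 ratio was lower in all 3 knockdown samples.

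Shared reads limit a few of these values. Of the tested genes of the neighbourhood, 10 pairs overlap on the chromosome, all on opposite strands, among them COX6C with VPS13B, AZIN1 with AZIN1-AS1, RPL30 with MATN2 and ZFPM2 with ZFPM2-AS1. Whether the counting used strand is not given in the sources used here, so reads from the overlapping stretches cannot be assigned with certainty. Processed copies that the table lists under the name of PABPC1, YWHAZ or POLR2K held 0.0152%, 0.295% and 0.387% of the counts of the gene itself. Those are the reads counted on the copies, and reads lost because they match both were not analysed here.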

How the data were processed

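RNA-seq of 3 control and 3 knockdown samples of LM3 cells was used. Reads were mapped with HISAT2 by the authors, and the submitters' processing notes list FastQC and cutadapt 1.9. The authors deposited raw counts per gene, without normalization, beside FPKM values per gene, which they scaled to both gene length and library size. The counting program, its use of strand and the annotation release are not given in the sources used here. Positions were checked against GENCODE release 29, in which 89 of the 92 neighbourhood genes were found, each overlapping its position.

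After filterByExpr and TMM scaling, counts were tested with edgeR's quasi-likelihood method (glmQLFit, glmQLFTest, version 4.0.16, R 4.3.3), with group as the only term, and the p-values of 18390 genes were adjusted together (Benjamini-Hochberg). Standard errors were obtained from the F statistic. Intervals use the moderated degrees of freedom. Distances run from start to start as the table gives them, where the start is the lower coordinate. For genes on the minus strand, ZNF706 among them, this is the end where transcription stops. Alternatives were DESeq2 1.42.0, other scalings, filters and distances, limma 3.58.1 on log2(FPKM + 0.1) and log2(FPKM + 1) above a mean of 1 FPKM, a replicate block, and each sample left out. Offsets for the trend of each library with GC content and with length were added after seeing the data.

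The neighbourhood, the role lists and the tests were chosen with earlier results of these data known. Named by rule were ZNF706, MTDH, LAPTM4B, YWHAZ and GRHL2, the 5 nearest tested genes on each side, the 5 with the highest FPKM, genes past both an adjusted p of 0.05 and a log2 fold change of 0.3 in size, and tested members of the role lists. Others were named after their values were seen. Some genes under this rule are counted above but not reported by name. In simulated counts for the same comparison (17871 genes), changes were planted in 200 genes, a far smaller share than the 22.8% called in the data. Each planted change was larger in size than that of any neighbour that was called. Of the 192 changed genes that were tested, 110 were recovered (57.3%), and 11 of 17679 unchanged genes were called. Because the settings differ, these rates do not carry over to the smaller changes of the neighbours.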

Additional observations from a re-analysis of the deposited data

How the results depend on the processing

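The log2 fold change of ZNF706 was between -0.77 and -0.70 when 1 sample was left out. In those fits 2648 to 3424 genes were called (1148 to 1485 higher, 1500 to 1939 lower), with 6 to 8 genes of the neighbourhood (0 to 2 higher, 6 to 7 lower), 1 of them within 1 Mb of ZNF706 and 4 to 6 beyond, and a median log2 fold change of the neighbourhood of -0.13 to -0.030 (-0.077 with all samples). DESeq2, its size factors, a mean count of at least 50 and the replicate block each called the same 11 genes. Same-numbered samples did not deviate together (correlations 0.027, -0.028 and 0.029), and with the replicate block 4361 genes were called in all and the median of the neighbourhood was -0.045. That median was -0.042 with DESeq2, -0.038 with a mean count of at least 50, -0.023 with library size alone, -0.051 without a filter, -0.031 and -0.030 with limma on log2(FPKM + 0.1) and log2(FPKM + 1), -0.049 with the GC offset and -0.10 with the length offset. Without a filter, 2990 of 31319 genes were called (1253 higher, 1737 lower). Of the 89 neighbourhood genes in that fit 7 were called, 0 of them higher and 5 beyond 1 Mb. The study's thresholds (an unadjusted p of 0.05 and a log2 fold change of 0.3 in size), which the paper used with DESeq2, were applied here to the edgeR fit. By these 7 of the 44 were called (RIDA and ANKRD46 higher, and ZNF706, KLF10, POP1, SPAG1 and AP003352 lower, 5 in all). This stood beside 1767 genes higher and 1081 lower in the whole table (15.5% in all). MTDH, PABPC1, SLC25A32, AZIN1, COX6C and ATP6V1C1 were thus not called. Within 2 Mb of ZNF706, 7 of 25 tested genes were called (1 higher, 6 lower), beside 22.8% of all tested genes. Of 21 neighbourhood genes averaging 1000 counts or more, 10 were called (1 higher, 9 lower), beside 37.5% of all tested genes of that depth. Both counts include ZNF706. Within 1 Mb, 2 were called by midpoints and, with ANKRD46 added, under library size alone and under the GC and length offsets. Library size alone gave 1518 falls and 2742 rises in all (64.4% rises, against 45.5% with TMM) and 3 rises and 7 falls in the neighbourhood (30.0% against 18.2%), and moved the median of all genes from 0.01 to 0.06.

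Reversals of sign occurred only in genes that were not called. Under library size alone these were YWHAZ (0.019), RRM2B (0.029), RPL30 (0.0061), DCAF13 (0.015), FZD6 (0.035) and VPS13B (0.032). Under limma on log2(FPKM + 0.1) and log2(FPKM + 1) they were YWHAZ (0.014 in both), RRM2B (0.023 and 0.020), DCAF13 (0.0098 and 0.0090), FZD6 (0.030 and 0.029) and VPS13B (0.027 and 0.016). With the GC offset they were YWHAZ (0.031), RRM2B (0.074), POLR2K (0.0020), OSR2 (-0.049), DCAF13 (0.055), FZD6 (0.068) and VPS13B (0.024), and with the length offset RRM2B (0.0047), OSR2 (-0.026) and VPS13B (0.056). OSR2 was also at -0.0016 with DESeq2's size factors, -0.0028 without a filter and -0.015 with the replicate block. With 1 sample left out, signs changed within these ranges: LAPTM4B -0.0079 to 0.060, RPS26P6 -0.23 to 0.29, RRM2B -0.073 to 0.0054, OSR2 -0.20 to 0.10, VPS13B -0.053 to 0.020, ZNNT1 -0.87 to 0.063, NIPAL2 -0.68 to 0.35, AP002907 -0.012 to 0.94 and RPL30 -0.12 to 0.032. The cause of these changes was not tested. ATP6V1C1, SPAG1, COX6C, AZIN1 and RIDA were each lost under at least 1 alternative other than a left-out sample, and the directions of all 11 called genes held throughout.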

Other observations

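Other genes of 8q that are often gained in liver cancer lie outside the neighbourhood and are given as values. Of 16 on a list, 15 were tested and 4 changed (26.7%, beside 22.8% of all tested genes), with a median log2 fold change of -0.03. ATAD2, a bromodomain protein of chromatin, fell from 209 ± 7.46 to 168 ± 3.10 CPM (mean ± SD over 3 samples, log2 fold change -0.31, edgeR's quasi-likelihood test, adjusted p = 0.00043). MYC, the oncogenic transcription factor, fell from 291 ± 9.07 to 263 ± 9.40 CPM (log2 fold change -0.15, same test, adjusted p = 0.023), and PVT1, the lncRNA gene next to it, fell from 44.7 ± 1.22 to 39.0 ± 1.02 CPM (log2 fold change -0.19, adjusted p = 0.014). SQLE, an enzyme of cholesterol synthesis, rose from 59.5 ± 2.07 to 66.6 ± 1.25 CPM (log2 fold change 0.16, adjusted p = 0.017). EIF3E, a translation initiation factor subunit (log2 fold change -0.12, adjusted p = 0.060), and RAD21, a cohesin subunit (log2 fold change 0.07, adjusted p = 0.059), did not pass the test.

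Outside the nuclear chromosomes, 18 of the 37 tested mitochondrial genes changed and all 18 were lower (48.6%, median log2 fold change -0.28), beside 22.8% of all tested genes called in either direction and 12.4% lower. Among the tested genes averaging 1000 counts or more, 24.3% were lower.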
